A study of Arabidopsis thaliana with 35 samples.

Results

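The genes described here were at their highest in shoots of ethanol-pretreated Arabidopsis after 13 days of drought. They were chosen by measured levels. For each gene, L was the log2 of the group mean of the deposited normalized counts plus 1, and a member had an L in ethanol plants at 13 days after the onset of drought (DAD) at least 1 above its L in water plants at 0, 10 and 13 DAD. A member also had a mean of at least 50 in ethanol plants at 13 DAD and no overlap between their 5 libraries and those of water plants at 13 DAD. Of 27417 genes, 114 met the rule. The mean was reached by 11002 genes, the margin by 336 and both by 132, of which 18 were left out for overlap alone. The levels in ethanol plants at 13 DAD and in water plants at 0, 10 and 13 DAD therefore chose the members, and they are given below as a description with no test.

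Many of the members described first belong to the anthocyanin pathway. Anthocyanins are flavonoid pigments made from phenylalanine: chalcone synthase and chalcone isomerase build the flavonoid skeleton, hydroxylases, a reductase and a dioxygenase turn it into an anthocyanidin, and glycosyl- and acyltransferases decorate the product before it is moved into the vacuole. In Arabidopsis the late steps are switched on by a complex of an R2R3-MYB factor, a bHLH factor and a WD-repeat protein, and the pigments are known to accumulate in leaves under drought, nutrient shortage, high light and high sugar.

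The study asked how ethanol supplied before drought changed the shoot transcriptome. All groups were shoots of the Col-0 ecotype grown 9 days on MS medium, as the labels have it, and 5 days on ceramic granular soil, with 5 libraries a group and 35 in all. Ethanol plants stood 3 days in 10 mM ethanol and water plants 3 days in water, after which watering was stopped, and both were harvested at 0, 10 and 13 DAD. A further group was harvested before the pretreatment and was therefore 3 days younger than the plants at 0 DAD. The groups are labelled E_D0d, E_D10d and E_D13d (ethanol), W_D0d, W_D10d and W_D13d (water) and C_D0d (before pretreatment). Neither the labels nor the methods say how many plants made up a library, so p-values measure the spread between these libraries.

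Total counts ran from 3589540 to 13440389 per library. The leaf mesophyll markers (5 genes, of Rubisco, light harvesting and the Calvin cycle) summed to 18956 to 53123 normalized counts in the libraries of ethanol plants at 13 DAD, against 14142 to 19924 in water plants. The 21 root markers summed to 98.4 to 254 in ethanol plants and to 49.3 to 101 in water plants, with 9 of them at 0 in all ethanol libraries and 7 in all water libraries (*IRT1* and *PLT1* among those at 0 in both). The 6 seed markers summed to 14.4 to 26.3 in ethanol plants and to 6.32 to 15.5 in water plants, with 4 and 3 of them at 0. The part of these differences in the results was not tested. None of the marker lists for root, flower, seed, guard cell or mesophyll held a member. In shoots measured in bulk, fewer cells of a type and less RNA per cell cannot be told apart.

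The members took 3.06, 2.48, 1.85, 1.85 and 1.97% of all counts in the 5 libraries of ethanol plants at 13 DAD, against 0.593, 0.382, 0.524, 0.393 and 0.631% in water plants. At 10 DAD they took 0.259 to 0.472% in ethanol plants and 0.17 to 0.371% in water plants, and at 0 DAD 0.0892 to 0.141% in ethanol plants and 0.0895 to 0.108% in water plants. In the group before pretreatment the share was 0.109 to 0.147%. Ethanol replicate 1 at 13 DAD held the highest value of its group for 53 of the 114 members and replicate 2 for 28, while replicate 3 held the lowest value for 35, replicate 4 for 34 and replicate 5 for 30. The drought markers of these libraries (8 genes) were summed beside this, and were 40544, 107513, 67147, 193353 and 176466 normalized counts in ethanol plants at 13 DAD, against 374333 to 545781 in water plants. Their part in the order of the libraries was not tested.

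**Figure D1:**
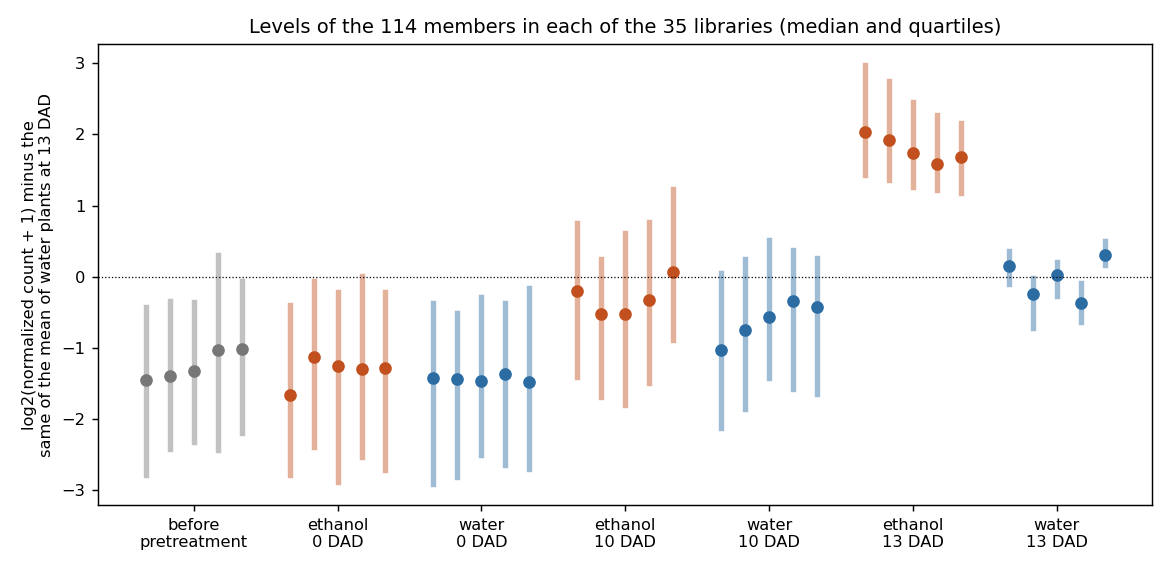
Levels of the 114 members in each library, as log2(normalized count + 1) minus the log2 of the mean of water plants at 13 DAD plus 1; points are medians over the members and bars run from the lower to the upper quartile. The medians lie between 1.58 and 2.04 in the 5 libraries of ethanol plants at 13 DAD and between -0.37 and 0.31 in those of water plants, which the rule fixes, and between -0.52 and 0.07 in ethanol plants at 10 DAD, which it does not.

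Of the 13 genes in a list of flavonoid and anthocyanin genes, 11 were members, beside 114 of all 27417 genes. The list was chosen with earlier results of these data known, so nothing is tested by this count. The first enzymes were chalcone synthase (*TT4*, AT5G13930), chalcone isomerase (*TT5*, AT3G55120) and flavanone 3-hydroxylase (*F3H*, AT3G51240). The later ones were flavonoid hydroxylase (*TT7*, AT5G07990), dihydroflavonol reductase (*DFR*, AT5G42800), anthocyanidin synthase (*LDOX*, AT4G22880), an anthocyanin xylosyltransferase named *UF3GT* in the annotation (AT5G54060) and an anthocyanin glucosyltransferase (AT4G14090). The regulators were the R2R3-MYB factors *PAP1* (AT1G56650) and *MYB90* (AT1G66390) and the bHLH factor *TT8* (AT4G09820). The other 2 genes of the list belong to the flavonol branch. Flavonol synthase *FLS1* averaged 31.7 ± 4.84 normalized counts in ethanol plants and 19.1 ± 6.2 in water plants at 13 DAD (SD, n = 5 each), and its activator *MYB12* averaged 5.05 ± 3.57 in ethanol plants and 3.36 ± 2.88 in water plants, both under the level the rule asks for.

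Upstream of 5 of these 11 genes a G-box was found, the palindrome CACGTG that bHLH and bZIP factors bind. The 250 bases before the annotated start of each are printed from the RefSeq sequence of TAIR10.1, 5′ to 3′ on the strand of the gene, with the G-box in capitals. They are shown because they are the pathway promoters in which these letters occur.
TT4 promoter, TAIR10.1 chr5:4488226-4488475, plus strand: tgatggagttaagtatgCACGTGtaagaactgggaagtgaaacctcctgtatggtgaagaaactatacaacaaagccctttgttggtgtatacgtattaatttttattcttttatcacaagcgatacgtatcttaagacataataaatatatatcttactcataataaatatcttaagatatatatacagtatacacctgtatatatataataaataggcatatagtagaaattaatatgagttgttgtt
F3H promoter, TAIR10.1 chr3:19024942-19025191, plus strand: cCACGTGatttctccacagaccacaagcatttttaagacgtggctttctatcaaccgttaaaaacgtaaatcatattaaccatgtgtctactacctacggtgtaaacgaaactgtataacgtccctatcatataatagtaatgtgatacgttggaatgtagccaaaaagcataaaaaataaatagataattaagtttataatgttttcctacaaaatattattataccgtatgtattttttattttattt
DFR promoter, TAIR10.1 chr5:17166033-17166282, minus strand: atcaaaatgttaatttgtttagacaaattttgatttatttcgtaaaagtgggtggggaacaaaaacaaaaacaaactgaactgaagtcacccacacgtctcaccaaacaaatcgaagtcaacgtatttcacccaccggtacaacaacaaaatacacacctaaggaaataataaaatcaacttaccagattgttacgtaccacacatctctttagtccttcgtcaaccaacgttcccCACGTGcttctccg
UF3GT promoter, TAIR10.1 chr5:21938397-21938646, minus strand: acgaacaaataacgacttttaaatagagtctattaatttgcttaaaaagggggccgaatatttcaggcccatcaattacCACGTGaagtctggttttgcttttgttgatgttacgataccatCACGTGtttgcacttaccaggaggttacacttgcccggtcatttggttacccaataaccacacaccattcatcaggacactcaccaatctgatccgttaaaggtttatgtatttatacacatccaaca
MYB90 promoter, TAIR10.1 chr1:24763691-24763940, plus strand: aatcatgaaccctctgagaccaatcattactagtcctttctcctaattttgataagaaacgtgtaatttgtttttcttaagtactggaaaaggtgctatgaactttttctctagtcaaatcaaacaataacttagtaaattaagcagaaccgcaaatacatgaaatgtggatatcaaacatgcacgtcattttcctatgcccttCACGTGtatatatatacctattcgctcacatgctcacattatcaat
The first base of the match lay at -233 from the start in *TT4*, -249 in *F3H*, -14 in *DFR* and -46 in *MYB90*, and at -171 and -128 in *UF3GT*. The *F3H* window overlaps AT3G51238, a gene on the other strand. Over all members, 20 of 114 promoters (17.5%) held CACGTG, against 1758 of 26719 promoters of the table (6.58%). The shorter ACGTG, which lies inside it, was read on both strands and occurred in 40.4% of member promoters, against 23.1% of all. These are counts of letters in a fixed window and not of bound sites. The promoters of the table include those of genes at low levels. Members had to reach a mean of 50 in ethanol plants at 13 DAD, as 11002 of the 27417 genes did. The promoters of those genes alone were not counted.

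**Figure D2:**
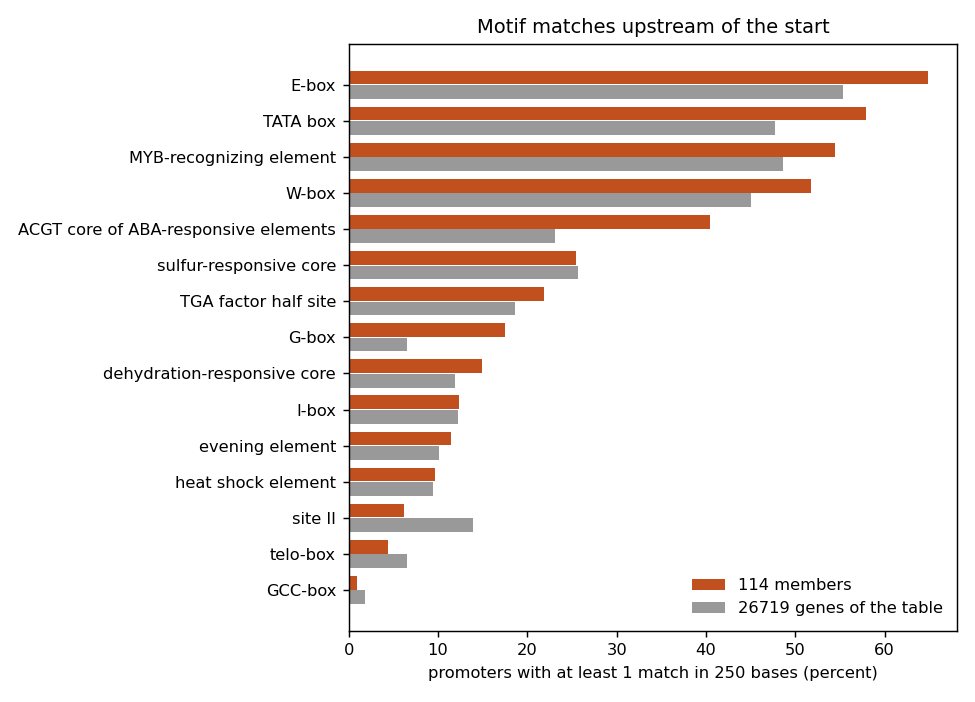
Share of promoters with at least 1 match on either strand in the 250 bases before the start, for the members (upper bar of each pair) and for all genes of the table with a promoter. The G-box stood at 17.5% of members and 6.58% of all genes, and site II elements (TGGGCC) at 6.14% and 13.9%.

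By the rule, chalcone synthase stood above the water plants at 13 DAD in every library. *TT4* had 23437, 19063, 11693, 15820 and 16501 normalized counts in ethanol plants at 13 DAD, against 4070, 1324, 3504, 2114 and 4452 in water plants. *F3H* had 4977, 3875, 2774, 3621 and 4124 in ethanol plants, against 1222, 569.9, 1183, 714 and 1274 in water plants. In both genes ethanol replicate 3 was the lowest of its group and water replicate 2 the lowest of the water plants. *TT5* averaged 644 ± 77.2 in ethanol plants and 255 ± 46.4 in water plants (SD, n = 5 each), the smallest margin of the 11.

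The later enzymes had larger margins than *TT4*, except for *DFR*, which lay between *TT4* and *F3H*. *DFR* had 11622, 10130, 5341, 8211 and 8883 normalized counts in ethanol plants at 13 DAD, against 2058, 732, 2191, 1050 and 2315 in water plants. *LDOX* had 7866, 6233, 3931, 3805 and 4431 in ethanol plants, against 672, 216, 606, 359 and 704 in water plants. *UF3GT* had 3062, 2592, 1624, 2142 and 2125 in ethanol plants, against 274, 68.2, 235, 116 and 372 in water plants. The lowest ethanol library of *LDOX* and *UF3GT* was thus several times the highest water library. *TT7*, which adds a hydroxyl group to the B ring, had 1713, 998, 558, 620.3 and 791 in ethanol plants, against 109.5, 48, 97.1, 62 and 139.8 in water plants. The margins of the rule, in log2 units of L, were 3.43 for *UF3GT*, 3.36 for *LDOX*, 3.34 for *TT7*, 2.77 for AT4G14090, 2.48 for *TT4*, 2.40 for *DFR*, 1.96 for *F3H* and 1.33 for *TT5*.

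The MYB regulators differed in their course in water plants. *MYB90* had 4028, 4343, 2909, 4183 and 3849 normalized counts in ethanol plants at 13 DAD, against 1286, 547, 1332, 814 and 1431 in water plants. *PAP1* had 2076, 1440, 1322, 537 and 787 in ethanol plants, against 122, 24, 57.1, 64.8 and 122 in water plants. At 10 DAD the water plants had 102, 98.6, 117, 410.2 and 113 counts of *MYB90* and 102, 176, 238, 416 and 349 of *PAP1*. In water plants, then, every library at 13 DAD was above every library at 10 DAD for *MYB90*, while *PAP1* averaged 77.9 ± 42.9 at 13 DAD and 256 ± 127 at 10 DAD, with overlap between the times. *TT8*, their bHLH partner, had 355, 466, 219, 404 and 419 in ethanol plants at 13 DAD, against 66.2, 24, 52, 22.6 and 56.8 in water plants. A near-identical copy of part of *MYB90* (AT1G66380, 96.95% over 131 bases) averaged 0 in both groups at 13 DAD, and that of *LDOX* (AT4G22870, 96.15% over 364 bases) averaged 0.747 in ethanol plants and 0 in water plants.

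**Figure D3:**
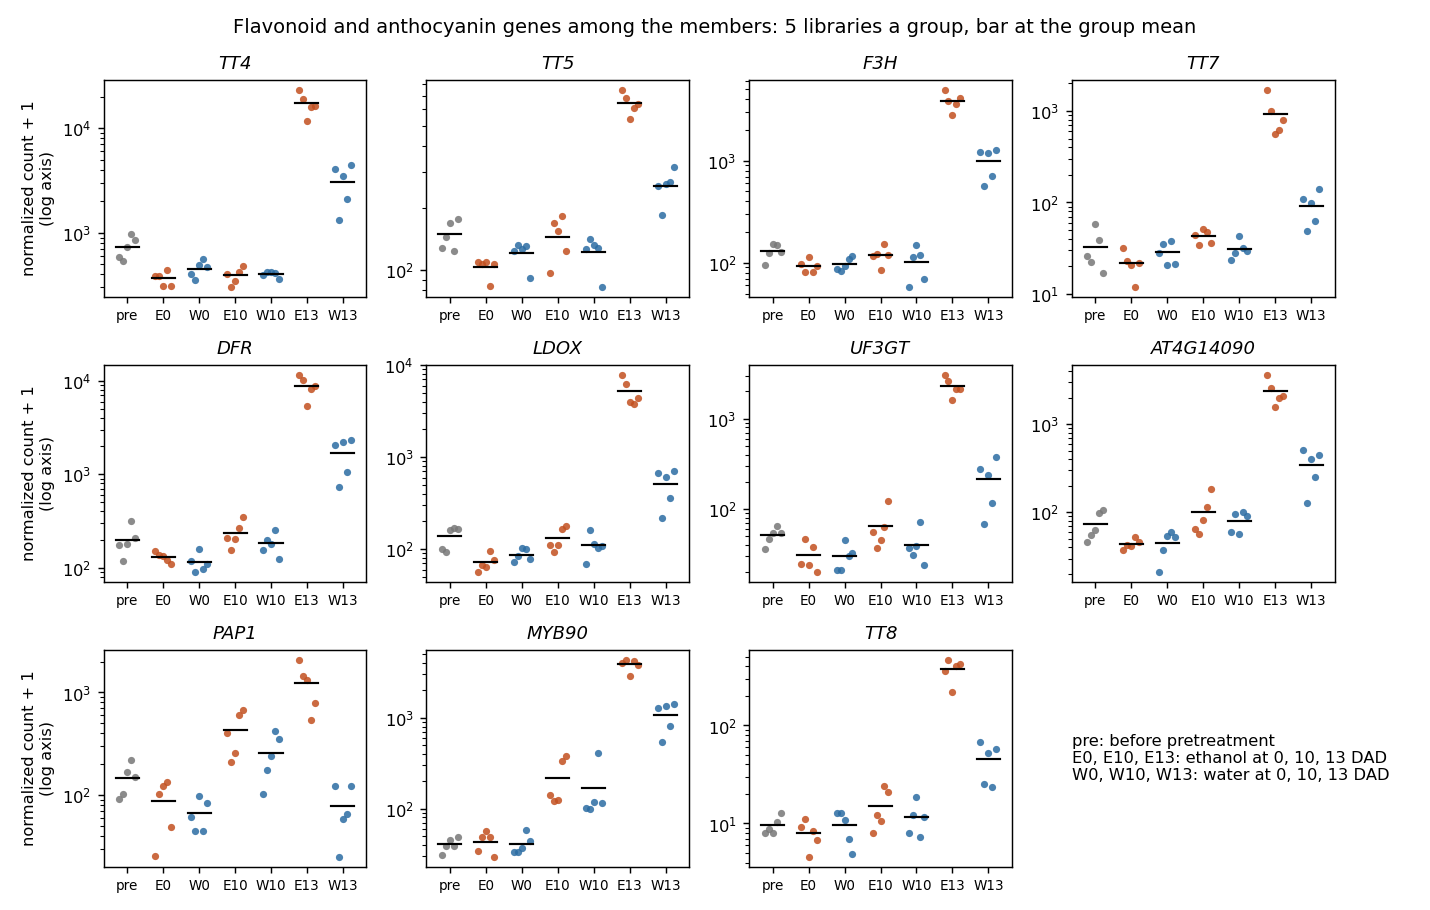
Normalized counts plus 1 of the 11 flavonoid and anthocyanin members in all 35 libraries, on a log axis in each panel, with points for libraries and a bar for the group mean. At 13 DAD every ethanol library lies above every water library by the rule; *PAP1* alone of the 11 has a lower mean in water plants at 13 DAD (77.9) than at 10 DAD (256).

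Other members act beside these enzymes and were picked for description by their known roles after their values were seen. The glutathione transferase *GSTF12* (*TT19*), a carrier of anthocyanins to the vacuole, had 8885, 7802, 4906, 6570 and 7279 normalized counts in ethanol plants at 13 DAD, against 2392, 959, 2019, 1055 and 2480 in water plants. *CHIL*, a non-catalytic chalcone isomerase relative that raises flavonoid output, had 1281, 1195, 817, 855 and 998 in ethanol plants, against 144, 49.3, 136, 66.2 and 205 in water plants. Neither gene overlapped between the groups, as the rule requires, and the margin of *CHIL* (3.09) was above that of chalcone synthase itself. The decorating enzymes *UGT78D2*, a flavonoid glucosyltransferase, and *AT5MAT*, an anthocyanin malonyltransferase, averaged 2137 ± 521 and 181 ± 79.9 in ethanol plants, and 624 ± 57.8 and 21.1 ± 12.3 in water plants (SD, n = 5 each). The coumaroyltransferases AT1G03495 and AT1G03940 averaged 802 ± 251 and 1195 ± 239 in ethanol plants, and 98 ± 61.8 and 298 ± 122 in water plants. These 2 genes are 96.62% identical over 1244 bases, so their reads may have been divided between them.

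Enzymes that feed the pathway were members too. Phenylalanine ammonia-lyase *PAL1*, the entry into phenylpropanoids, averaged 1074 ± 293 in ethanol plants and 330.1 ± 87.4 in water plants at 13 DAD (SD, n = 5 each). The coumarate:CoA ligase *4CL3*, tied to flavonoids, had 255, 148, 88, 92.9 and 121 in ethanol plants, against 10.8, 12.6, 29.8, 16.9 and 30.5 in water plants, while *4CL2* averaged 104 ± 39.5 and 46.5 ± 17.7. The sinapate ester enzyme *UGT84A2* averaged 809 ± 126 in ethanol plants and 320 ± 59.3 in water plants. The remaining regulators tied to pigment or epidermal fate were the WRKY factor *TTG2*, at 109.8 ± 26.1 in ethanol plants and 26.2 ± 15.2 in water plants, and the small MYB *CPL3*, at 459.8 ± 214 and 65.9 ± 19.5.

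Outside the pathway, the largest margin of all 114 (3.55) belonged to *ASPGB1* (AT3G16150), an asparaginase that releases ammonium from asparagine. It had 332, 316, 199.5, 197 and 175 normalized counts in ethanol plants at 13 DAD, against 15.7, 15.2, 12.8, 22.6 and 33.6 in water plants. *SAG12* (AT5G45890), a cysteine protease used as a marker of leaf senescence, had 3900, 5735, 1036, 1525 and 2564 in ethanol plants, against 586, 82.1, 267, 189 and 208 in water plants. The other 3 genes of the senescence list were not members. Of these, *SAG13* averaged 1204 ± 403 in ethanol plants and 4300 ± 783 in water plants, the opposite order to *SAG12*, while the NAC factor gene annotated *NAC6* (AT5G39610) averaged 1317 ± 133 and 963 ± 190 and the chlorophyll-breakdown gene *NYE1* 2069 ± 239 and 1516 ± 250 (SD, n = 5 each).

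The BTB-TAZ scaffold protein gene *BT1* (AT5G63160) had 1258, 1513, 1042, 1421 and 1275 normalized counts in ethanol plants at 13 DAD, against 130, 129, 124, 142 and 263 in water plants. *ICS2*, the minor isochorismate synthase, had 551, 499.6, 340, 333 and 387 in ethanol plants, against 45.7, 7.58, 11.9, 12.7 and 72.5 in water plants. By the rule both stood clear of the water plants at 13 DAD in every library. Both were also low in all earlier groups, with group means of 133 to 213 for *BT1* and 30.1 to 61.1 for *ICS2*. *DIP2* (AT5G03210), annotated as an E3 ubiquitin ligase, had 17979, 15748, 14336, 12005 and 11781 in ethanol plants, against 6220, 7284, 6065, 5724 and 7472 in water plants. Its margin was 1.13, with a mean of 464 ± 210 in water plants at 10 DAD, so its level at 13 DAD was above that at 10 DAD under both pretreatments. AT1G64360, of unknown function, averaged 8186 ± 808 in ethanol plants and 3914 ± 811 in water plants.

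A few members of abscisic acid signalling and flowering were in the set. The bZIP factor *ABF3*, which binds ABA-responsive elements, averaged 974 ± 180 in ethanol plants and 334 ± 56.1 in water plants at 13 DAD (SD, n = 5 each), and *CYP707A2*, an ABA-degrading hydroxylase, averaged 280.2 ± 45.6 and 98.6 ± 23.9. The florigen relative *TSF* had 168, 169, 89.3, 144 and 114 in ethanol plants, against 27.7, 25.3, 40.9, 19.7 and 35.7 in water plants, and its family member *BFT*, which opposes flowering, averaged 403 ± 74.6 and 164 ± 24.9. No member was in the lists of drought markers, glucosinolate, jasmonate, salicylic acid, defensin, sugar starvation or hypoxia genes. Of the 20 listed glucosinolate genes tested at 13 DAD, 16 were called higher in ethanol than in water plants, beside 8.79% of all genes tested. None met the rule, and the median log2 fold change of the 20 was 1.29. The listed genes summed to 1610 to 5032 normalized counts in ethanol plants and 1058 to 1215 in water plants at 13 DAD. At 10 DAD the sums were 19216 to 22647 and 16401 to 17068, so they were lower at 13 DAD under both pretreatments. The glucosinolate S-oxygenase *FMO GS-OX2*, not in the list, was a member, at 273.5 ± 47 in ethanol plants and 66.2 ± 8.93 in water plants (SD, n = 5 each). The sulfur-shortage genes *LSU1* and *ATSDI1*, not in any list, averaged 414 ± 172 and 59.9 ± 44.4 in ethanol plants and 39.97 ± 40.6 and 5.17 ± 2.19 in water plants. In water plants their L was 2.27 and 1.79 lower at 13 than at 10 DAD. *LSU1* left the set without water replicate 1 or 2 at 10 DAD or ethanol replicate 1 at 13 DAD. *ATSDI1* left it without ethanol replicate 4 at 13 DAD.

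Some members met the rule only with 1 library in place. *CYP81D11*, a cytochrome P450 of xenobiotic responses, had 16.1, 75, 894, 37.8 and 18.4 normalized counts in ethanol plants at 13 DAD, against 12, 8.85, 2.56, 2.82 and 8.41 in water plants. *OPR2*, an oxophytodienoate reductase of the same detoxification list, had 208, 134, 706, 158 and 151 in ethanol plants, against 30.1, 41.7, 52, 40.9 and 65.2 in water plants. The highest water group of *OPR2* was that at 10 DAD, with a mean of 109.1, and that of *CYP81D11* was at 0 DAD, with 64.79. Before pretreatment *CYP81D11* had 90.68 to 273.1, above every ethanol value at 13 DAD but that of replicate 3. Both genes were highest in ethanol replicate 3 at 13 DAD, and both dropped out of the set when that library was left out. They were the only members among the 22 genes of that list. *OPR2* overlaps *OPR1* on the same strand, and a read in the overlap could be counted for both; *OPR1* averaged 650.4 in ethanol plants and 195.5 in water plants. The nudix hydrolase *NUDT24* had 1391, 169, 247, 86.5 and 123 in ethanol plants, against 15.7, 11.4, 7.67, 15.5 and 10.5 in water plants, and dropped out without ethanol replicate 1. Its L in water plants was 2.81 lower at 13 than at 10 DAD. Of the 114 members, 84 met the rule whichever of the 20 libraries it uses was left out.

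In water plants the members followed different courses. L was at least 1 higher at 13 than at 10 DAD for 43 members, changed by less than 1 for 53 and was at least 1 lower at 13 DAD for 18. The highest water group was that at 13 DAD for 74 members, at 10 DAD for 34 and at 0 DAD for 6. In ethanol plants the mean at 13 DAD was above that at 10 DAD for every member, by at least 1 in L for 93. *LAC3*, a laccase gene, had the largest fall of the 18, at -3.9 in L: it had 109, 123, 108, 75.7 and 80.6 normalized counts in ethanol plants at 13 DAD, against 2.41, 3.79, 0.852, 0 and 4.21 in water plants, while water plants at 10 DAD had 37.5, 77.9, 42.8, 38.8 and 40.4. Its level in water plants was thus lower at 13 than at 10 DAD in every library, and higher in ethanol plants at 13 DAD than in every water library at 10 DAD except replicate 2, whose 77.9 lay above 1 of the 5 ethanol values. *LAC3* left the set without water replicate 1, 4 or 5 at 10 DAD or ethanol replicate 2 at 13 DAD.

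**Figure D4:**
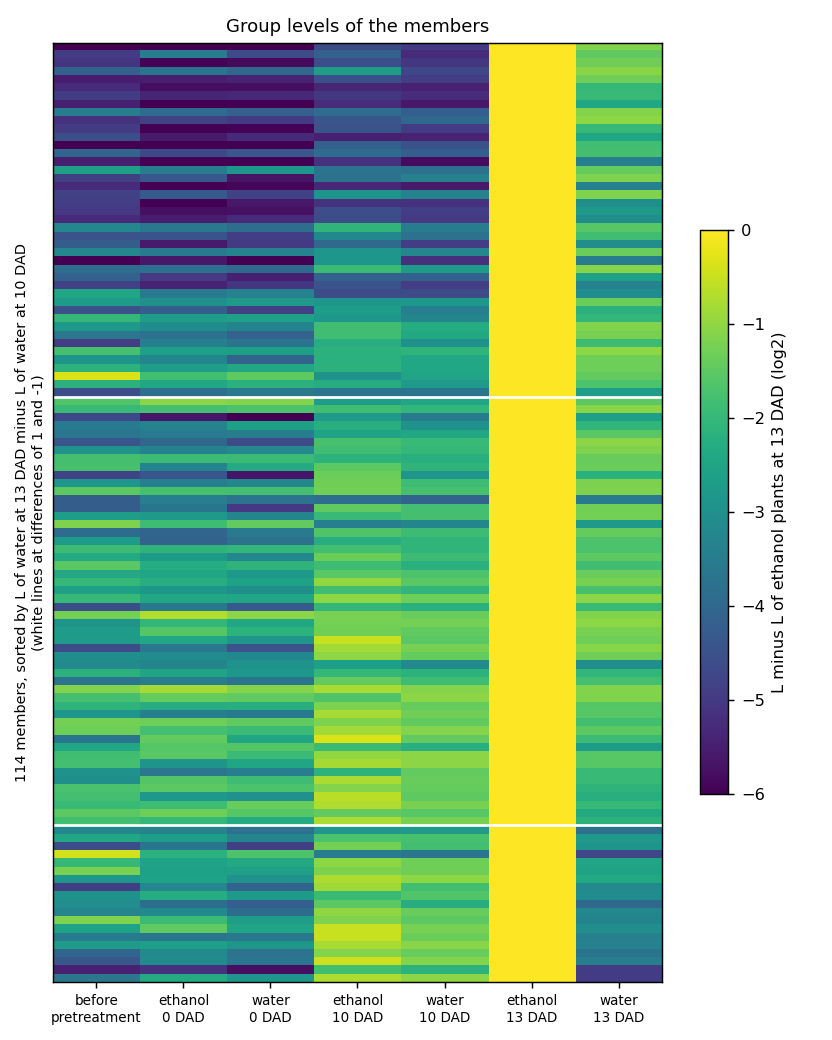
L of each member in the 7 groups minus its L in ethanol plants at 13 DAD, in log2 units, 1 row for each of the 114 members. Rows are sorted by the change in water plants between 10 and 13 DAD, with white lines below the 43 members that were at least 1 higher at 13 DAD and above the 18 that were at least 1 lower; the pale column of ethanol plants at 13 DAD is 0 by construction.

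The contrast the rule used, ethanol against water plants at 13 DAD, was fitted across all genes only to give sizes. A gene was called where edgeR gave an adjusted p below 0.1 and the log2 fold change reached 1 in size. All 114 members were called higher, beside 8.79% of the 15394 genes tested, and 0 lower, beside 4.78%, and nothing is read from these counts. Their log2 fold changes ran from 1.06 to 5.43 with a median of 1.90, beside 0.04 for all genes. When libraries were scaled by total counts alone, the median of all genes was 0.30 instead of 0.04, 2243 genes were called higher and 457 lower in place of 1353 and 736, and the rule itself picked 234 genes, the 114 among them.

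The step from 0 to 10 DAD within ethanol plants used no library of the rule. It is still not independent of the rule, which favours low levels in water plants at 0 DAD. Ethanol plants stood close to those at 0 DAD, with 0.0696% of all genes called higher and 0.029% lower. This tilts the counts of this step toward rises. Many members were already higher at 10 DAD: 107 of 114 passed the filter on low counts and 60 of those were called higher, where 5.74% of all 16918 genes tested were, while 5 were called lower, where 11.8% of all genes were. The median log2 fold change was 1.08, beside 0.01 for all genes. The 7 members with too few counts were AT1G16950, AT2G18540, AT2G46940, AT5G24880, *AT5MAT*, *LBD1* and *QRT2*. A member that passed the count filter through 10 DAD alone had to be higher there; among the 93 members with a mean of at least 10 counts at both times, 46 were called higher and 5 lower, beside 5.19% and 9.72% of all genes so filtered. With libraries scaled by total counts alone, 70 members were higher and 3 lower, the median of all genes was 0.24, and of all genes 1725 were higher and 1446 lower in place of 971 and 2000.

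Of the 11 flavonoid and anthocyanin members 5 were called higher at 10 DAD, and these were the 3 regulators and both glycosyltransferases. *MYB90* had 140.5, 121, 123, 335 and 377 normalized counts in ethanol plants at 10 DAD, against 33.6, 47.2, 55.1, 47.7 and 28.4 at 0 DAD. The groups did not overlap, and the log2 fold change was 2.39 ± 0.429 (SE; edgeR adjusted p = 0.00147). *PAP1* had 401, 210, 258, 598 and 677 at 10 DAD, against 24.6, 101, 122, 134 and 47.6 at 0 DAD, again without overlap (2.38 ± 0.526, SE; edgeR adjusted p = 0.00595). The glucosyltransferase AT4G14090 had 64.2, 56.4, 80.5, 114 and 183 at 10 DAD, against 36.9, 41.8, 40.9, 51.4 and 45.1 at 0 DAD (1.22 ± 0.279, SE; edgeR adjusted p = 0.00175). Water plants averaged 40.2 for *MYB90*, 65.4 for *PAP1* and 43.9 for AT4G14090 at 0 DAD, and 168, 256 and 79.7 at 10 DAD. For *UF3GT* and *TT8* they averaged 29.3 and 8.67 at 0 DAD, and 39.5 and 10.6 at 10 DAD. These water levels entered the rule and were not tested. None of the 5 genes was called between ethanol and water plants at 10 DAD.

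*UF3GT* had 55.2, 36.4, 44.1, 62.4 and 121 normalized counts at 10 DAD, against 23.8, 45.6, 23.1, 36.7 and 19.2 at 0 DAD (1.11 ± 0.323, SE; edgeR adjusted p = 0.00876). *TT8* had 7.02, 11.1, 9.59, 23.1 and 19.8 at 10 DAD, against 8.2, 10.1, 3.56, 7.34 and 5.85 at 0 DAD (1.01 ± 0.468, SE; edgeR adjusted p = 0.0834). In both genes the groups overlapped, and both lay close to the threshold. Leaving out ethanol replicate 5 at 10 DAD lowered the log2 fold change to 0.78 for *UF3GT*, 0.92 for AT4G14090 and 0.89 for *TT8*, under the limit of 1, and *UF3GT* fell to 0.98 without ethanol replicate 5 at 0 DAD. *TT8* was also lost without replicates 1, 3, 4 or 5 at 0 DAD or replicate 4 at 10 DAD, with log2 fold changes of 0.77 to 1.07. The enzymes of the middle of the pathway were not called because their change was under 1, at 0.96 ± 0.274 for *TT7*, 0.92 ± 0.194 for *LDOX* and 0.86 ± 0.177 for *DFR* (SE), each with an edgeR adjusted p of at most 0.00654. The first enzymes had log2 fold changes of 0.50 ± 0.165 for *TT5*, 0.36 ± 0.163 for *F3H* and 0.11 ± 0.127 for *TT4* (SE; edgeR adjusted p = 0.0165, 0.0748 and 0.497). *TT4* had 400.4, 304, 344, 418 and 483 normalized counts at 10 DAD, against 384, 383, 310.3, 439 and 308 at 0 DAD, and the groups overlapped. Of the 13 listed genes 12 were tested, 5 were higher and 0 lower, with a median of 0.94.

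The largest rises among the members came from other families. *NUDT24* had 117, 54.2, 50.8, 241 and 106 normalized counts in ethanol plants at 10 DAD, against 9.84, 8.51, 10.7, 12.8 and 10 at 0 DAD, with no overlap (log2 fold change 3.50 ± 0.479, SE; edgeR adjusted p = 9.66e-05). AT3G62960, a thioredoxin-superfamily gene, had 197, 118, 113, 168 and 252 at 10 DAD, against 18, 19.3, 24, 18.4 and 10.9 at 0 DAD (3.23 ± 0.251, SE; edgeR adjusted p = 3.41e-09). *TSF* had 53.2, 34.1, 20.1, 40.2 and 117 at 10 DAD, against 0, 10.8, 2.67, 3.67 and 10 at 0 DAD (3.19 ± 0.656, SE; edgeR adjusted p = 0.00167). None of these 3 overlapped between the times. AT2G29370, a dehydrogenase-like Rossmann-fold gene, and AT5G42610, annotated as a calcium uniporter, had log2 fold changes of 3.03 ± 0.384 and 2.87 ± 0.599 (SE). *SAG12* had 236, 43, 496, 60.7 and 1201 at 10 DAD, against 21.3, 60.3, 27.6, 31.2 and 156 at 0 DAD. Its groups overlapped, and its log2 fold change of 2.72 ± 1.05 (SE; edgeR adjusted p = 0.064) was 1.79 with an adjusted p of 0.16 without ethanol replicate 5 at 10 DAD. It was also lost without replicate 1, 2, 3 or 4 at 0 DAD or replicate 3 at 10 DAD, with adjusted p from 0.105 to 0.13. *GSTF12* had 261, 183, 155, 361 and 648 at 10 DAD, against 112, 109.8, 96.9, 110.1 and 79.4 at 0 DAD (1.67 ± 0.399, SE; edgeR adjusted p = 0.00815), and *OPR2* had 144, 79.4, 61.4, 132 and 179.7, against 31.1, 40.2, 53.4, 51.4 and 45.1 (1.45 ± 0.263, SE; edgeR adjusted p = 2.33e-04). Neither gene overlapped between the times.

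The 5 members that were lower at 10 DAD were *4CL3*, *SOFL2*, *CYP81D11*, *GA3OX1* and *CHIL*. *4CL3* had 4.01, 14.8, 17.3, 5.98 and 18.7 normalized counts at 10 DAD, against 49.2, 53.4, 28.4, 23.9 and 35.1 at 0 DAD, with no overlap (log2 fold change -1.65 ± 0.378, SE; edgeR adjusted p = 0.00113). *CHIL* had 47.2, 41.5, 27.8, 30.8 and 56 at 10 DAD, against 74.6, 83.5, 102, 95.5 and 77.7 at 0 DAD, also with no overlap (-1.08 ± 0.206, SE; edgeR adjusted p = 1.95e-04). These are the 2 members of the phenylpropanoid and flavonoid routes that were lower at 10 DAD and then stood high in ethanol plants at 13 DAD. *GA3OX1*, which makes active gibberellin, had 17.1, 11.1, 7.67, 12 and 11.7 at 10 DAD, against 33.6, 32.5, 22.2, 14.7 and 30.9 at 0 DAD (-1.18 ± 0.349, SE; edgeR adjusted p = 0.00867), and its groups overlapped in 1 library. *SOFL2*, a relative of a cytokinin-linked regulator, had a log2 fold change of -1.65 ± 0.378 and *CYP81D11* of -1.32 ± 0.42 (SE). Without ethanol replicate 3 or 4 at 10 DAD the change of *CHIL* was -0.97, and with libraries scaled by total counts alone it was -0.84 and that of *GA3OX1* -0.93.

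**Figure D5:**
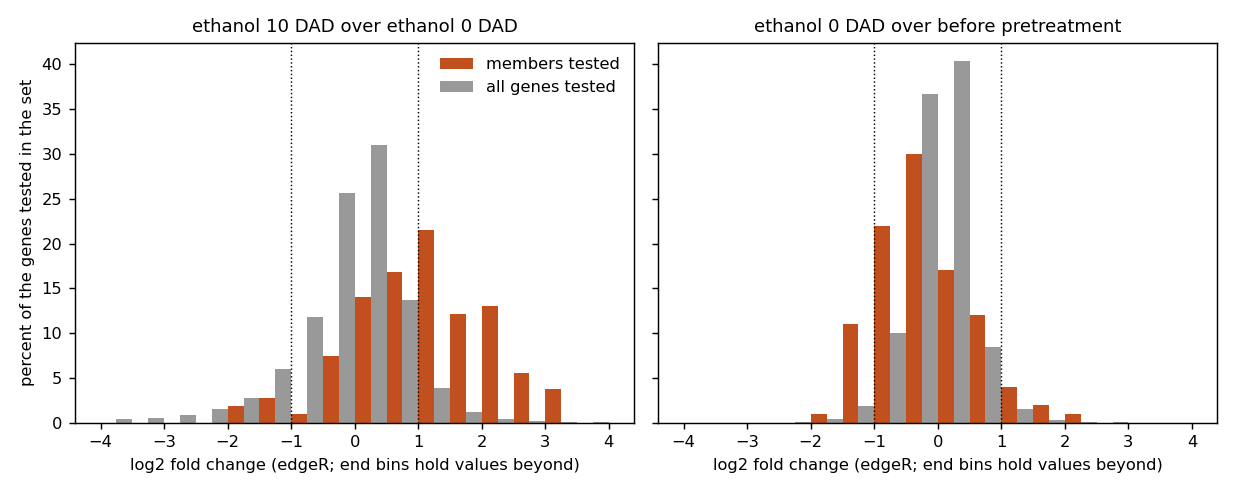
Distribution of log2 fold changes in bins of 0.5 for the members tested and for all genes tested, in ethanol plants at 10 over 0 DAD and in ethanol plants at 0 DAD over plants before pretreatment; dotted lines mark 1 and -1. The members' median was 1.08 in the left panel (107 members) and -0.21 in the right panel (100 members), beside 0.01 for all genes in both.

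The period of ethanol supply itself, ethanol plants at 0 DAD against plants before pretreatment, also lay outside the rule. It includes 3 days of growth, which it cannot tell apart from the ethanol. It shares the ethanol libraries at 0 DAD with the comparison above, so a member's values in both are not independent. The rule favours low levels in water plants at 0 DAD, which stood close to these ethanol plants. This can tilt the counts toward lower calls. Of 100 members tested, 6 were called higher, where 1.77% of the 17084 genes tested were, and 10 lower, where 2.15% were. The median log2 fold change was -0.21, beside 0.01 for all genes. Among the 87 members with a mean of at least 10 counts in both groups, 3 were higher and 7 lower, beside 1.51% and 1.85% of all genes so filtered. The number lower was 6 without replicate 4 or replicate 5 of the plants before pretreatment, and 6 without ethanol replicate 5.

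The members called lower were *CYP81D11*, *GA3OX1*, AT2G48130, AT4G14819, *OPR2*, *GSTF12*, AT1G03495, AT2G29370, *CHIL* and *CYP722A1*. *OPR2* had 31.1, 40.2, 53.4, 51.4 and 45.1 normalized counts in ethanol plants at 0 DAD, against 118, 118, 123, 115 and 108 before pretreatment (log2 fold change -1.40 ± 0.174, SE; edgeR adjusted p = 1.48e-06). *GA3OX1* had 33.6, 32.5, 22.2, 14.7 and 30.9 in ethanol plants, against 76.4, 77.5, 76.4, 83.1 and 78.1 before pretreatment (-1.49 ± 0.214, SE; edgeR adjusted p = 1.09e-05). Neither gene overlapped between the groups. *CYP81D11* had 9.02, 48, 63.1, 36.7 and 69.4 in ethanol plants, against 126, 109.7, 273, 90.7 and 187 before pretreatment, also with no overlap (-1.78 ± 0.495, SE; edgeR adjusted p = 0.0342). *GSTF12* (-1.13 ± 0.172, SE; edgeR adjusted p = 3.79e-05) and *CHIL* (-1.06 ± 0.22, SE; edgeR adjusted p = 0.0023) were among the pigment genes called, with the coumaroyltransferase AT1G03495 (-1.11 ± 0.419, SE; edgeR adjusted p = 0.062). The call of *CHIL* was lost without replicate 3 or 4 before pretreatment, without ethanol replicate 1 and with the replicate number as a block. Those of AT1G03495, AT2G29370 and *CYP722A1* were lost without any 1 of 5, 8 and 8 of the 10 libraries. *TT4* was lower by nearly the same amount (-1.0 ± 0.162, SE; edgeR adjusted p = 5.57e-04) and was not called because its change, before rounding, fell just short of the limit. The lipid-transfer gene AT2G48130, at 0 to 10.8 normalized counts in ethanol plants and 9.35 to 32.1 before pretreatment, lost its call without replicate 4 or 5 before pretreatment or ethanol replicate 1, 4 or 5, with adjusted p from 0.117 to 0.195. Plants given water for the same 3 days stood close to the ethanol plants. *OPR2* averaged 116.2 before pretreatment, 44.25 in ethanol plants and 44.93 in water plants at 0 DAD. Ethanol over water plants at 0 DAD gave log2 fold changes of -0.02 for *OPR2*, -0.30 for *GA3OX1* and -0.49 for *CYP81D11*. *GSTF12* stood at -0.16 and *CHIL* at -0.21, and none of these genes was called.

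The members called higher were AT1G78780, AT2G18150, *LAC3*, AT4G16000, AT4G00670 and AT1G64360. AT1G78780, annotated as a pathogenesis-related family gene, had 11.5, 9.28, 17.8, 49.6 and 16.7 normalized counts in ethanol plants at 0 DAD, against 3.9, 7.17, 3.51, 0 and 4.2 before pretreatment (log2 fold change 2.22 ± 0.554, SE; edgeR adjusted p = 0.00471), with no overlap. It overlaps AT1G78790 on the same strand, so a read in the overlap could be counted for both. The class III peroxidase AT2G18150 had 12.3, 30.9, 23.1, 25.7 and 30.9, against 3.12, 5.74, 13.2, 9.45 and 11.8 (1.53 ± 0.419, SE; edgeR adjusted p = 0.00945), with an overlap of 1 library. *LAC3* had 8.2, 28.6, 21.3, 5.51 and 30.1, against 0.779, 12.9, 5.27, 7.56 and 9.24, with overlap, and its log2 fold change of 1.43 ± 0.53 (SE; edgeR adjusted p = 0.0565) was lost without replicate 1 or 3 before pretreatment or ethanol replicate 2, 3 or 5 (adjusted p from 0.105 to 0.16). AT1G64360 (1.02) was lost without replicate 2 before pretreatment, without ethanol replicate 4 and with the block. The remorin gene AT4G00670 (1.11) was lost without ethanol replicate 3 or 4, at 0.99 and 0.94.

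Between ethanol and water plants before 13 DAD few members were called different. The water plants at 10 and 0 DAD entered the rule, and the ethanol plants at both times entered the comparisons above, so the values are a description. At 10 DAD, 0 of 107 members tested were called with edgeR in either direction, where 0.0247% of all genes were higher and 0.0433% lower. An unadjusted p under 0.05 was reached by 15 members at higher and 1 at lower levels, beside 1436 of the 16171 genes tested, and DESeq2 called 1, *TSF*. The median log2 fold change was 0.31, beside -0.00 for all genes. It was positive for 92 of the 107 members tested, beside 49.6% of all genes tested. The rule favours low levels in water plants at 10 DAD, which tilts this count toward ethanol. Of all 114 members, 97 had a higher mean in ethanol than in water plants at 10 DAD and 17 a lower one. *TSF* had 53.2, 34.1, 20.1, 40.2 and 117 normalized counts in ethanol plants at 10 DAD, against 14.1, 30.2, 18.8, 12.6 and 13.5 in water plants, with an overlap of the lowest ethanol and highest water libraries. For *TT4* these levels were 400.4, 304, 344, 418 and 483 in ethanol plants and 391, 423, 422, 415 and 357 in water plants. At 0 DAD, *ELF4-L1*, a relative of a clock gene, was the 1 member called higher among 97 tested, where 0.0696% of all genes were, and none was called lower (0.029% of all genes). Its log2 fold change was 1.39, and the call was lost without replicate 1, 2, 3 or 5 of the water plants or ethanol replicate 2, 3 or 4. DESeq2 called AT1G34060 in its place, and 15 members had an unadjusted p under 0.05 at higher and 3 at lower levels, beside 1865 of the 17242 genes tested.

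The threshold of the rule cut through a continuous range of margins. Just inside it were *SPD1* (1.02), the sugar transporter *SWEET1* (1.01) and the threonine aldolase *THA1* (1.01). Just outside, among genes that met the other conditions, were the phosphotransfer gene *AHP4*, the carrier membrane protein *SCAMP4* and AT5G10580 (0.99 each). *SWEET1* had 677, 981.6, 580.3, 888 and 893 normalized counts in ethanol plants at 13 DAD, against 549, 142, 398, 427 and 473 in water plants, and *AHP4* had 455, 379.9, 406, 446 and 407, against 142, 43, 183, 144 and 227. The median margin over all members was 1.42. Families in which word patterns on names matched more than 1 member were UDP-glycosyltransferases (4, led by AT4G14090 and *UGT78D2*) and cytochromes P450 (3, among them *CYP707A2*). Pairs of lipid-transfer, GDSL lipase, pectin and thioredoxin-type genes were matched too. The patterns miss some names, for example *UF3GT*, and *PAP1* and *CPL3* among the MYB factors, a family that thus also held more than 1 member. They take in *GBSS1*, a starch synthase, with the glycosyltransferases. The family counts are therefore not complete. Of the 114 members, 77 were in none of the lists or families so matched. The members lay on all 5 nuclear chromosomes (33, 18, 21, 17 and 25 in order), and no 2 of them were neighbours.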

How the data were processed

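RNA of 35 shoot libraries was sequenced by Lasy-Seq. The authors trimmed reads with Trimmomatic, aligned them to TAIR10 with HISAT2 and counted primary alignments by strand with featureCounts, a read counting for each gene that held a set share of it. The deposited raw counts are whole reads per gene. The deposited normalized counts, a signal made by the authors with DESeq2, equalled raw counts divided by 1 factor per library (checked). Of 27417 gene IDs 26720, and all 114 members, matched the RefSeq annotation of TAIR10.1.

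The members, the gene lists and the tests were chosen with earlier results of these data known. Each comparison was fitted on the raw counts of its own 10 libraries with edgeR 4.0.16 in R 4.3.3 (quasi-likelihood F-test, TMM, filterByExpr, robust), with Benjamini-Hochberg adjustment over all genes tested. A gene was called where the adjusted p (FDR) was below 0.1 and its log2 fold change reached 1 in either direction. The SE was the log2 fold change over the square root of F. The steps were tested on simulated data. Alternatives were DESeq2 1.42.0, RLE or total-count scaling, other count filters, an FDR of 0.05, the replicate number as a block, other levels for the rule and each library left out. Near-identical copies (at least 95% over 100 bases) were sought with BLAST 2.17.0.

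The genes named were the 12 members with the largest margin, the 8 with the highest mean, the listed genes, up to 5 called members with the largest change in each direction, the 3 members nearest the margin and the 3 genes just outside it, with up to 3 examples of a family. All others, and the MYB-recognizing element and E-box motifs of the promoter plot, were chosen after the values were seen. Intervals of counting error were not computed, since each value rests on 5 libraries.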

Additional observations from a re-analysis of the deposited data

Results flagged for a closer look

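Among the members whose values were checked library by library, and the members' share of all counts, 15 of 196 groups of 5 held a library that stood apart from the other 4, its gap to the nearest being over 0.71 of the group's range. Chance gives about 1 in 20 for normally distributed values, which was not checked here. Every library flagged was the highest of its group. In ethanol plants at 13 DAD, *NUDT24* was 1391 normalized counts in replicate 1, with 86.46 to 246.8 in the others, *CYP81D11* was 894 in replicate 3, with 16.08 to 75.02 in the others, and *OPR2* was 706.3 in replicate 3, with 134.1 to 207.7. In water plants at 13 DAD, *BT1* was 262.8 in replicate 5, with 124.4 to 142.3 in the others. In water plants at 10 DAD, replicate 4 stood apart for *MYB90* (410.2, others 98.6 to 116.9) and *GSTF12* (401.8, others 151.1 to 220.8), and replicate 2 for *SAG12* (211.5, others 30.45 to 80.78) and *LAC3* (77.93, others 37.48 to 42.79).

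In ethanol plants at 0 DAD, *SAG12* was 156.3 in replicate 5, with 21.31 to 60.33 in the others, *ASPGB1* was 54.14 in replicate 2, with 7.524 to 18.85, and AT1G78780 was 49.56 in replicate 4, with 9.282 to 17.78. In water plants at 0 DAD, *SAG12* was 37.59 in replicate 1, with 17.31 to 23.16 in the others, and *ICS2* was 54.14 in replicate 4, with 21.16 to 27.12. Before pretreatment, *TSF* was 10.08 in replicate 5, with 1.435 to 3.778 in the others, and *GA3OX1* was 83.12 in replicate 4, with 76.38 to 78.11.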

How the results depend on the processing

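None of the 27 fold changes recomputed for single members turned its direction under an alternative. The rule picked 108 to 128 genes with 1 library left out and 234 with levels scaled by total counts. For ethanol plants at 10 over 0 DAD, leaving out 1 library gave 53 to 62 members higher and 4 to 5 lower, and 930 to 1128 of all genes higher and 1930 to 2180 lower. Scaling by total counts gave 1725 of all genes higher and 3 members lower. For ethanol plants at 0 DAD over plants before pretreatment, leaving out 1 library gave 4 (without ethanol replicate 4) to 9 members higher and 6 to 12 lower, and 275 to 358 of all genes higher and 323 to 405 lower. Here 6 members were lower at an FDR of 0.05, 2 were higher and 5 lower among genes averaging 20 counts or more, and 479 of all genes were higher with at least 1 count. For ethanol over water plants at 13 DAD, leaving out 1 library gave 109 to 114 members and 1141 to 1594 of all genes higher, and 661 to 864 of all genes lower, and scaling by total counts gave 2243 higher and 457 lower. For ethanol over water plants at 10 DAD, leaving out 1 library called 0 members and 0 to 14 of all genes higher and 0 to 30 lower. There DESeq2 called 1 member and 28 of all genes higher and 38 lower, total-count scaling 13 higher, the filter of at least 1 count 13 higher and 17 lower, and an FDR of 0.05 called 0 higher and 1 lower. For ethanol over water plants at 0 DAD, leaving out 1 library gave 0 to 2 members and 2 to 27 of all genes higher and 1 to 11 lower, and an FDR of 0.05 called 0 members and 4 of all genes higher and 2 lower. The causes were not tested.

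The replicate numbers did not pair the samples: same-numbered libraries had correlations of -0.34 to 0.19. With the replicate block, 57 members were higher and 5 lower at 10 over 0 DAD in ethanol plants, and 6 higher and 6 lower in ethanol plants at 0 DAD over plants before pretreatment. The block gave 114 members higher at 13 DAD between ethanol and water plants. At 10 DAD it called 1 member (AT1G78780), 13 of all genes higher and 34 lower, and at 0 DAD 4 higher and 2 lower. It took *TT8* to a log2 fold change of 0.92 with an edgeR adjusted p of 0.154.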
